A study of Homo sapiens with 6 samples.

Results

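The cluster of miR-424, miR-503, miR-542 and miR-450 is a group of miRNA genes on the X chromosome, at the locus of the long non-coding RNA gene MIR503HG. Its 7 members on the array were the probes named hsa-miR-424-5p, hsa-miR-424-3p, hsa-miR-503-5p, hsa-miR-542-3p, hsa-miR-542-5p, hsa-miR-450a-5p and hsa-miR-450b-5p (hsa marks human miRNAs and is left out from here on), chosen by name among 2565 miRNA probes. The samples were 6 arrays of Panc-1 cells, an established human line from a pancreatic ductal adenocarcinoma. Control cells without TGF-β (0 ng/mL) were on 3 arrays and cells given 10 ng/mL of TGF-β were on the other 3, with 72 h of incubation in both groups and no genetic change in either. Total RNA was labelled with Cy5 and read in 1 colour on 3D-Gene arrays. Each group was hybridised on its own slide, and an effect of the slide therefore cannot be told apart from one of TGF-β. The labels do not say whether the arrays of a group came from separate cultures, so the p-values measure only the spread between these arrays.

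A miRNA is cut from a hairpin precursor, and the strand from either arm, named 5p or 3p, can be loaded into an Argonaute protein, where its seed near the 5′ end pairs with target mRNAs. miR-424-5p and miR-503-5p belong to the extended miR-15/16 family, known for repressing drivers of the cell cycle such as cyclin D1, cyclin E1 and CDC25A. TGF-β is a secreted cytokine that halts the growth of many epithelial cells and promotes their transition to a mesenchymal state, and in mammary epithelium the miR-424 and miR-503 genes have been described as induced by it. The comparison asks whether the miRNAs of this locus differed between TGF-β-treated and control Panc-1 cells.

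The mature sequences are printed 5′ to 3′ with the seed, bases 2 to 8, in capitals, to show which members can share targets. They are from RefSeq (GRCh38.p14), in which 6 of the 7 members matched an entry.
miR-424-5p: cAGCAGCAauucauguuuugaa
miR-503-5p: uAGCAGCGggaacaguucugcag
miR-424-3p: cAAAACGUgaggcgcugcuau
miR-542-5p: uCGGGGAUcaucaugucacgaga
miR-450a-5p: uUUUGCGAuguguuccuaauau
miR-450b-5p: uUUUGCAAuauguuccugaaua
miR-16-5p: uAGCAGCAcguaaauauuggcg
No seed of bases 2 to 8 was shared by any pair of these members. miR-424-5p and miR-503-5p had the same bases 2 to 7 and parted at the last seed base (A8G, counted from 1 at the 5′ end of miR-424-5p). miR-450a-5p and miR-450b-5p parted within the seed (G7A) and were identical at 16 of 22 positions, compared with 12 of 22 for miR-424-5p and miR-503-5p. miR-16-5p, shown because it is the best known relative, has the whole seed of miR-424-5p. The same was true of miR-15a-5p, miR-15b-5p, miR-195-5p, miR-497-5p and miR-6838-5p, so that 6 listed relatives outside the locus carried it. How far the array's probes tell relatives apart is not given in the files.

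The members come from 6 hairpin genes within 6527 bp of the minus strand of chromosome X in GRCh38.p14, from 134540185 to 134546711; the array files carry no coordinates. In the direction of transcription, MIR424 (134546614 to 134546711) comes first and MIR503 (134546328 to 134546398) follows after a gap of 215 bp. MIR503 lies wholly inside the interval of MIR503HG (134543377 to 134546630), and 17 bases of MIR424 overlap the start of that interval. After 4890 bp comes MIR542 (134541341 to 134541437), then after 733 bp MIR450A2 (134540508 to 134540607). MIR450A1 (134540341 to 134540431) and MIR450B (134540185 to 134540262) follow with gaps of 76 bp and 78 bp. miR-450a-5p has the same sequence in MIR450A1 and MIR450A2, so its probe reads the output of both genes together.

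All 7 members were detected on all 6 arrays, a miRNA counting as detected when its signal exceeded the blank-spot mean of that array by over 2 SDs of the blank spots. Detection limits lay between 19.5 and 22.8 intensity units, over blank means of 18.2 to 21.3. miR-424-5p gave signals of 541.6, 632 and 695 units in control cells and 686, 817 and 617 units in TGF-β-treated cells, 802 to 1511 SDs above the blank mean. miR-450a-5p gave 101, 125 and 159 units in control cells and 108, 128 and 110 units in treated cells. The signals of miR-542-3p were between 63.2 and 94.7 units, those of miR-503-5p between 43.0 and 57.9, and those of miR-542-5p between 35.8 and 47.0. These 5 members were at least 24.9 SDs above the blank mean on every array. The other members were near the limit, with miR-424-3p at 23.1 to 27.8 units (7.52 to 10.1 SDs) and miR-450b-5p at 20.2 to 23.5 units (2.88 to 8.48 SDs). With a limit of 3 SDs, miR-450b-5p was no longer detected on every array, which left 6 members. No member spot was flagged by the scanner.

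**Figure D1:**
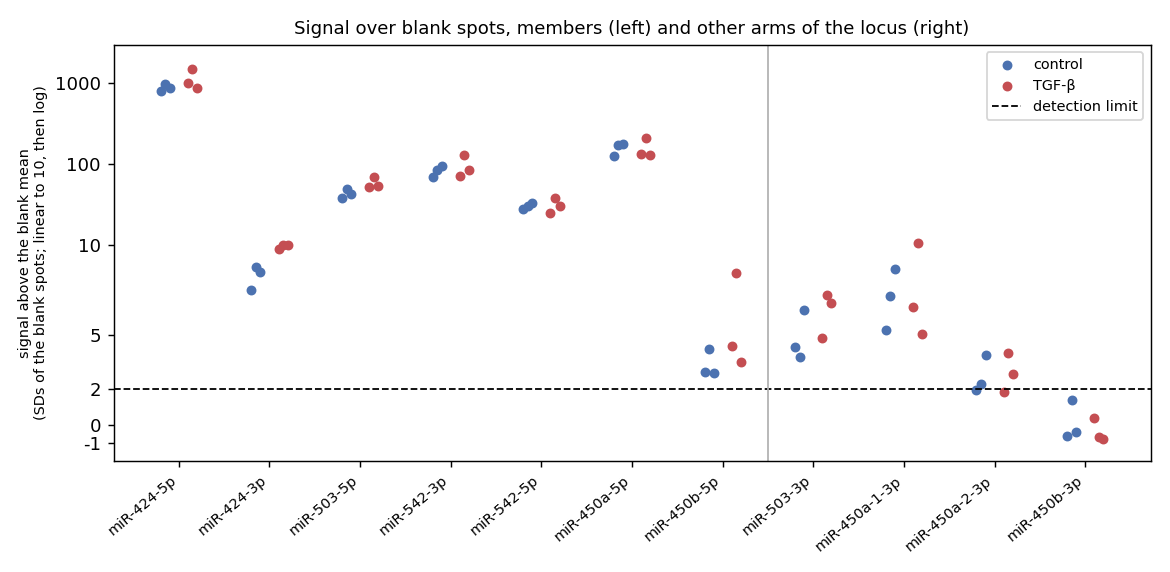
Signal of each arm of the locus above the mean of the blank spots, in SDs of the blank spots (vertical axis, linear to 10 and logarithmic above), with 1 point per array in control (blue) and TGF-β-treated (red) cells. All points of the 7 members on the left lie above the dashed detection limit of 2 SDs, while miR-450a-2-3p crosses it and miR-450b-3p stays below it.

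Signals were low across the arrays, with a median miRNA spot of 20.4 to 24.1 units and 1531 to 1787 detected miRNAs per array. The main analysis subtracted the blank mean rather than the local background printed beside each spot, because that background followed the spot's own signal. On the spot of miR-424-5p, the brightest member, the local background was 1.11, 0.698 and 0.857 times the signal on the control arrays and 1.11, 0.491 and 0.851 times on the TGF-β arrays. Among miRNAs that mark epithelial cells, miR-200a-3p and miR-200b-3p were detected on all arrays, miR-141-3p on none, and miR-200c-3p, miR-205-5p and miR-429 on 1, 1 and 3 arrays. The pancreatic miR-216b-5p and miR-217 were detected on none, and miR-375 and miR-216a-5p on 1 and 2 arrays. The summed blank-subtracted signal was 11.3 to 21.8 units (control) and 15.6 to 19.6 (TGF-β) for the 6 epithelial miRNAs, and 5.21 to 14 and 8.21 to 11.2 for 4 miRNAs of blood cells. It was 15.6 to 21.9 and 17.6 to 34.8 units for 5 mesenchymal miRNAs; the part of other cell types in the results was not tested.

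No member of the cluster passed the test for a difference between TGF-β-treated and control cells. In these bulk samples, fewer cells with a miRNA and less of it per cell cannot be told apart. The largest difference among the members with a signal well above the blank spots was that of miR-503-5p, which was 1.21-fold higher in treated cells (adjusted p = 0.298 from limma). Of the 7 members, 5 were higher and 2 lower in treated cells, with a median log2 difference of 0.13. Over all 1457 miRNAs tested, 47.5% were higher and the median was -0.01. limma called 38 of them higher (2.61%) and 20 lower (1.37%) at an adjusted p under 0.05, together 3.98%, compared with 0 of the 7 members in either direction. At an unadjusted p under 0.05, limma gave 1 of the 7 members, compared with 13.7% of all tested miRNAs. Values below are blank-subtracted, quantile normalized log2 intensities, and differences are TGF-β minus control on that scale, with the standard error and the 95% interval of the limma fit.

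**Figure D2:**
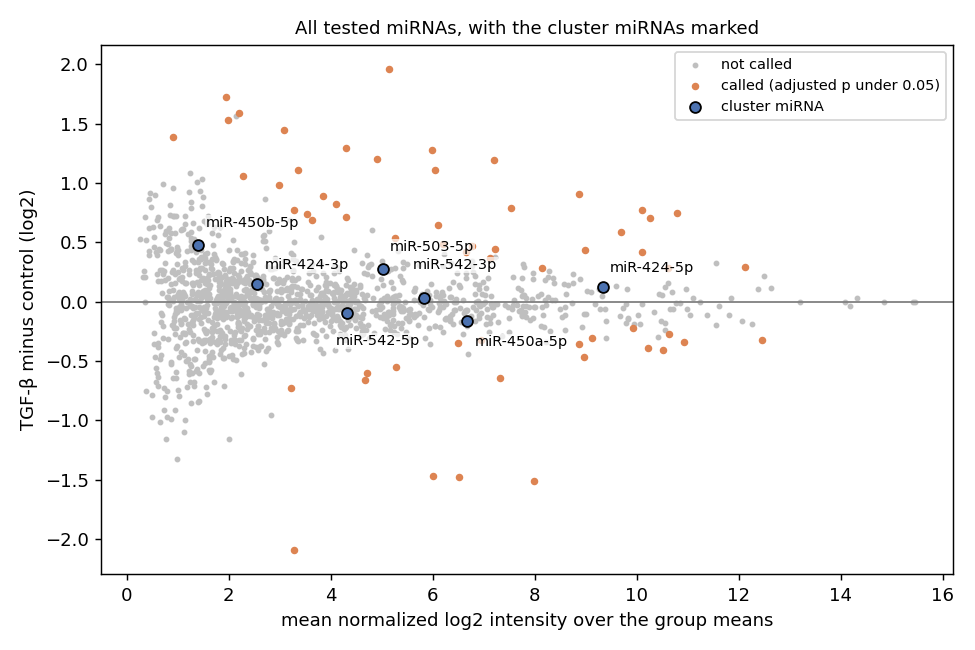
Difference between TGF-β and control (vertical axis, log2) against the mean normalized log2 intensity of the groups (horizontal axis) for the 1457 tested miRNAs. Orange points are the 58 miRNAs called by limma at an adjusted p under 0.05, and the 7 cluster miRNAs (blue, labelled) lie among the grey points that were not called.

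miR-424-5p, the arm of MIR424 that carries the miR-15/16 type seed, had log2 values of 9.23, 9.36 and 9.21 on the control arrays, against 9.54, 9.47 and 9.16 on the TGF-β arrays. TGF-β replicates 1 and 2 were above every control array, but TGF-β replicate 3 was the lowest of all 6 arrays. limma put the difference at 0.13 (standard error 0.09, adjusted p = 0.641), with an interval of -0.08 to 0.33 that corresponds to 0.944-fold to 1.26-fold. The opposite arm, miR-424-3p, had log2 values of 2.43, 2.55 and 2.46 in control cells and 2.81, 2.34 and 2.75 in treated cells. Here TGF-β replicate 2 was the array below all controls, and the other treated arrays were above them. The difference was 0.15 (standard error 0.18, adjusted p = 0.795 from limma), with an interval of -0.24 to 0.54. The arms of MIR424 had close mean differences, while different treated arrays were the low ones.

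miR-503-5p, the neighbour with the same bases 2 to 7 as miR-424-5p, had log2 values of 4.73, 5.06 and 4.85 on the control arrays, against 5.27, 5.11 and 5.11 on the TGF-β arrays. It was the one member whose groups did not overlap, although the highest control array (5.06) was close to the lowest treated arrays (5.11). The exact permutation test gave p = 0.1 (2-sided), the smallest that 3 arrays against 3 allow. The difference was 0.28 (standard error 0.12, unadjusted p = 0.0354 and adjusted p = 0.298 from limma), with an interval of 0.02 to 0.53. The unadjusted p stayed under 0.05 in 2 of the 6 fits with 1 array left out, those without control replicate 2 and without TGF-β replicate 3. Groups did not overlap for 1 of 7 members in this direction, compared with 8.85% of all tested miRNAs, and for no member with the treated arrays lower, compared with 10.2%. The groups of miR-503-5p were apart also when the arrays were left unscaled or were scaled to their median or 75th percentile, settings in which 12.3%, 17.5% and 18.7% of all tested miRNAs were apart in either direction, compared with 19% here. With the 75th percentile those of miR-542-5p were apart as well, with the treated arrays lower. With the local background those of miR-503-5p overlapped, with a difference of -0.08, and miR-424-3p was the 1 member apart, with the treated arrays lower (7.14% of all tested miRNAs were apart).

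The arms of MIR542 did not stand apart. miR-542-3p, known for repressing the apoptosis inhibitor survivin, had log2 values of 5.62, 5.82 and 6.0 on the control arrays, against 5.69, 5.97 and 5.88 on the TGF-β arrays. The treated arrays lay within the range of the controls, and the difference was 0.03 (standard error 0.12, adjusted p = 0.962 from limma), with an interval of -0.23 to 0.30. Its sign rested on single arrays, being -0.06 without control replicate 1 and -0.04 without TGF-β replicate 2. miR-542-5p had log2 values of 4.28, 4.33 and 4.49 in control cells and 4.19, 4.28 and 4.34 in treated cells. Its groups overlapped, with a difference of -0.09 (standard error 0.12, adjusted p = 0.810 from limma) and an interval of -0.35 to 0.16.

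Farthest along the locus, miR-450a-5p had log2 values of 6.53, 6.86 and 6.89 on the control arrays, against 6.67, 6.66 and 6.46 on the TGF-β arrays. The lowest array was a treated one, but control replicate 1 was below the other treated arrays. limma gave a difference of -0.16 (standard error 0.11, adjusted p = 0.576), whose interval of -0.41 to 0.08 corresponds to 0.753-fold to 1.06-fold. The difference lay between -0.27 and -0.09 with 1 array left out, and its sign turned with the local background (0.19). miR-450b-5p had log2 values of 1.12, 1.47 and 0.91 in control cells and 1.62, 2.08 and 1.24 in treated cells. Its highest values were on treated arrays, but TGF-β replicate 3 was below control replicate 2. The difference of 0.48 was the largest of the members and the least certain (standard error 0.29, adjusted p = 0.524 from limma), and its signals were the closest to the detection limit. Its interval ran from -0.16 to 1.12, or 0.894-fold to 2.18-fold. In this fit, a log2 difference of 1 in either direction lay outside the interval of the other 6 members. With the local background the standard error of miR-424-5p was 0.65, compared with 0.09 here.

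**Figure D3:**
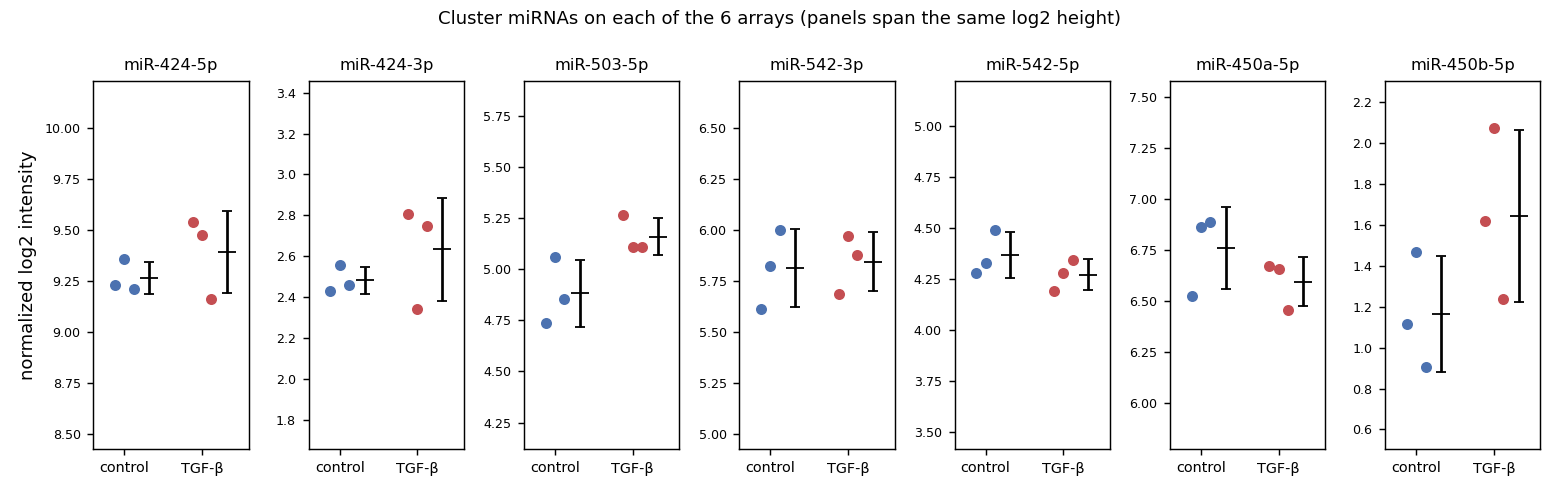
Normalized log2 intensity (vertical axis) of the 7 cluster miRNAs on each control (blue) and TGF-β (red) array, with the mean and SD of each group (n = 3) in black beside the points. Every panel spans the same log2 height, and miR-503-5p is the panel in which all treated arrays lie above all control arrays.

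Along the locus, the tested arms of MIR424 and MIR503 all had differences above 0 on the main scale. Those of MIR542 and MIR450A1 were between -0.16 and 0.03 and miR-450b-5p was at 0.48. No arm was called, and this order did not hold with the local background. There miR-424-3p (-0.035) and miR-503-5p (-0.083) were below 0, while miR-424-5p (0.037) and miR-503-3p (0.023) were above it. miR-542-3p (0.13), miR-542-5p (0.040) and miR-450a-5p (0.19) were above 0 there, and miR-450a-1-3p (-0.015) below. miR-503-3p was detected on all arrays and had log2 values of 1.64, 1.33 and 2.07 in control cells and 1.77, 1.82 and 2.17 in treated cells, a difference of 0.24 (standard error 0.25, adjusted p = 0.75 from limma). miR-450a-1-3p was also detected on all arrays, with a difference of -0.11 (standard error 0.23, adjusted p = 0.904 from limma). The groups overlapped for both. miR-450a-2-3p was detected on 2 control and 2 TGF-β arrays and was not tested, and miR-450b-3p was not above the detection limit on any array.

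**Figure D4:**
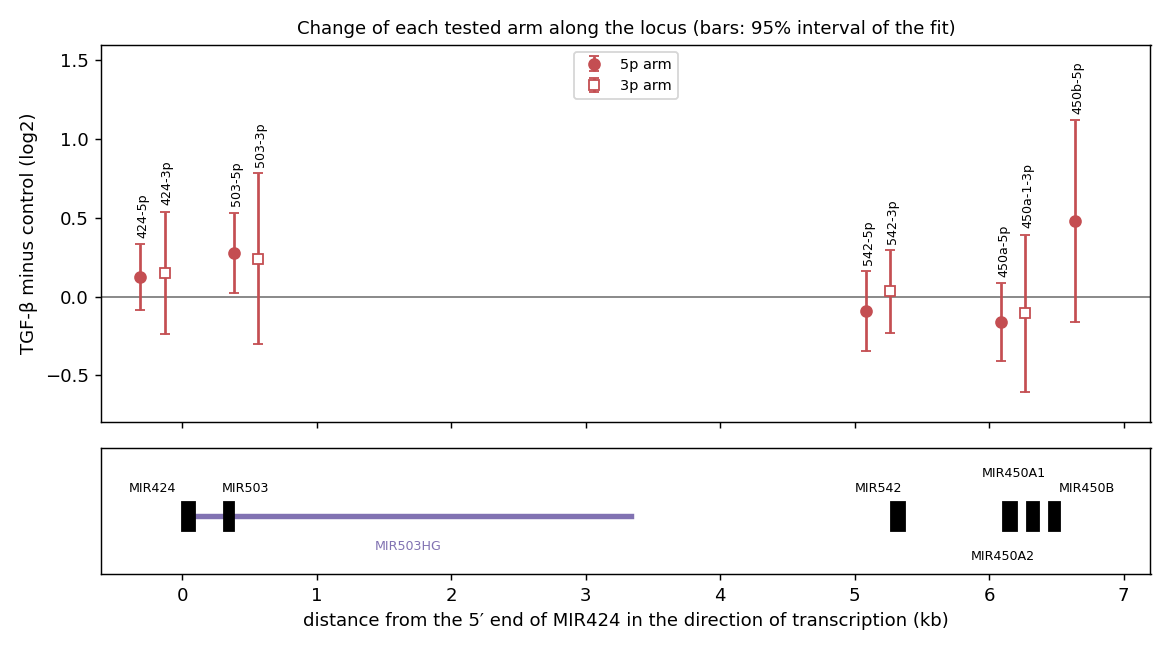
Difference between TGF-β and control (upper panel, log2, with the 95% interval) for each tested arm, placed by its hairpin gene in the lower panel (distance in kb from the 5′ end of MIR424; hairpins as black boxes, MIR503HG as a line). Points are moved sideways so that they do not cover each other, miR-450a-5p stands at MIR450A1 although MIR450A2 encodes it too, and 1 of the 9 intervals, that of miR-503-5p, excludes 0.

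Differences between members within an array do not depend on a scaling factor for the array, and 21 pairs of members were compared in this way, a comparison chosen after the values were seen. Without scaling, miR-503-5p minus miR-450a-5p was -1.74, -1.80 and -2.05 on the control arrays, against -1.37, -1.58 and -1.27 on the TGF-β arrays. The treated arrays were all above the control arrays, with a shift of 0.46. miR-503-5p minus miR-542-5p shifted by 0.42 and miR-424-5p minus miR-450a-5p by 0.34, both with groups apart, while miR-450a-5p minus miR-450b-5p shifted by -0.65. After quantile normalization the groups of miR-424-5p minus miR-450a-5p overlapped and the other 3 pairs were still apart. These shifts do depend on the background. With the local background the TGF-β minus control differences were -0.083 (miR-503-5p), 0.037 (miR-424-5p), 0.040 (miR-542-5p), 0.19 (miR-450a-5p) and 0.0095 (miR-450b-5p). The members of each of these 4 pairs then stood in the opposite order. Without scaling, groups were apart for 4 of the 21 pairs (19.0%), compared with 18.5% of all pairs of miRNAs detected on every array, so the share among the members was close to that of miRNAs in general.

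In the deposited table of processed values, miR-503-5p had 102, 132 and 112 in control cells and 143, 175 and 145 in treated cells, and miR-424-3p had 20, 24 and 22 compared with 27, 26 and 27. These were the members whose groups did not overlap there, 2 of 7, both higher, compared with 11% of the miRNAs with a value on all arrays. miR-424-5p averaged 2356 ± 254 on the control arrays there and 2976 ± 760 on the TGF-β arrays (SD, n = 3 each). There, 6 of the 7 members had their highest value on TGF-β replicate 2, the array with the largest scaling factor (4.78, compared with 3.37 to 4.31 on the others). The median difference of all miRNAs was 0.11 on the log2 scale in the deposited table and 0.0036 after it was rescaled to the miRNAs present on all arrays. limma called no member in either version.

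Of 6 relatives of miR-424-5p outside the locus, 1 passed the test. All 6 had a difference below 0 on the main scale, with a median of -0.19 (47.5% of all tested miRNAs were above 0), although 3 of them (miR-15b-5p, miR-195-5p and miR-497-5p) were above 0 in the deposited table and 3 (miR-15b-5p, miR-497-5p and miR-6838-5p) with the local background, and groups were apart for 4 of them, compared with 10.2% of all tested miRNAs in this direction. The relatives are not separate observations, since miR-15a-5p and miR-15b-5p each have their gene close to a gene of miR-16-5p. The genes of miR-195-5p and miR-497-5p are close to each other too. Under median scaling miR-15b-5p was at -0.05. miR-16-5p fell by 0.32 on the log2 scale (standard error 0.06, adjusted p = 0.0155 from limma) and was the 1 relative called. miR-15a-5p had a difference of -0.22, miR-195-5p of -0.16 and miR-15b-5p of -0.11, with adjusted p of 0.197, 0.354 and 0.481 from limma. miR-6838-5p was at -0.27 (-0.10 without TGF-β replicate 3) and miR-497-5p at -0.07 (-0.0087 without control replicate 2), with adjusted p of 0.583 and 0.857. The call of miR-16-5p was lost in 13 of the 22 alternatives, with -0.11 (adjusted p = 0.758 from limma) under median scaling and -0.16 (adjusted p = 0.464) under 75th percentile scaling. It was also lost when control replicate 2, or any 1 of the TGF-β arrays, was left out (adjusted p of 0.0640 to 0.0999), although the difference then stayed between -0.37 and -0.30. The deposited table gave -0.01 (adjusted p = 0.989 from limma), and the same difference of -0.32 was not called without the trend (adjusted p = 0.273) or with the methods' t-test (adjusted p = 0.196). Whether the members and these relatives differed in response was not tested.

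**Figure D5:**
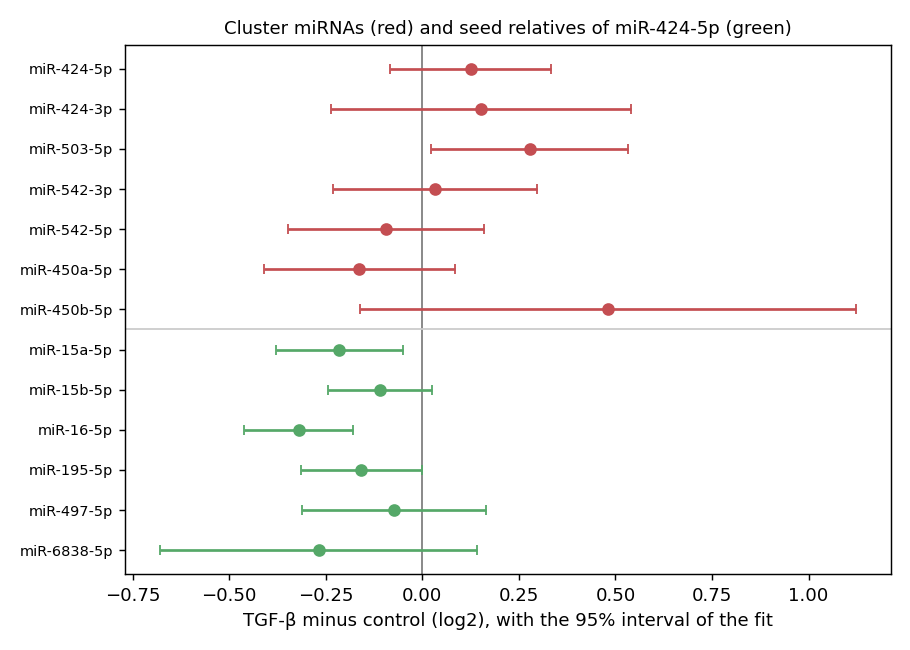
Difference between TGF-β and control (horizontal axis, log2, with the 95% interval of the fit) for the 7 cluster miRNAs (red) and 6 relatives with the seed of miR-424-5p (green). All green points lie below 0 on this scale, with miR-16-5p at -0.32 (3 of them lie above 0 in the deposited table and 3 with the local background), and the red points lie between -0.16 and 0.48.

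The nearest other miRNA genes on the chromosome are those of the cluster of miR-106a and miR-363, known for growth-promoting miRNAs of the miR-17 family, at 369906 to 370732 bp from the locus. Of 11 arms listed for it, 10 were tested, limma called 0 in either direction (1 at an unadjusted p under 0.05) and the median difference was 0.07. miR-19b-3p, which is also encoded elsewhere, was highest relative to its error (0.16, standard error 0.05, adjusted p = 0.15 from limma), with groups apart. A further list held 10 miRNAs described to rise with TGF-β in other cells. It was chosen with earlier results of these data known and is no independent evidence. Of the list, 2 were called higher and 0 lower, with a median of 0.07, compared with 2.61% and 1.37% of all tested miRNAs. The 2 called were miR-181a-5p (1.19, adjusted p = 5.67e-06 from limma) and miR-181b-5p (1.28, adjusted p = 5.88e-06). With the local background their differences were 0.52 and 0.08, and limma called neither. miR-143-3p, a smooth muscle and fibroblast miRNA, had the largest difference of that list (1.57, standard error 0.44, adjusted p = 0.0919 from limma) and was not called here, although median scaling (adjusted p = 0.0235 from limma) and the other scalings called it. Its difference was 1.03 without TGF-β replicate 2, 0.33 with no background correction and 0.03 with the local background. On the main scale, no member of the cluster had a difference as large as those of miR-181a-5p, miR-181b-5p and miR-143-3p. With the local background, miR-450a-5p (0.19) and miR-542-3p (0.13) were above miR-181b-5p (0.08) and miR-143-3p (0.03), while miR-181a-5p (0.52) stayed above every member.

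Over the 6 arrays, after the group means were removed, the correlation between pairs of members ran from -0.60 (miR-424-5p and miR-542-5p) to 0.87 (the arms of MIR542), with a median of 0.04 over the 21 pairs. The arms of MIR424 had a correlation of -0.13, and miR-424-5p and miR-503-5p one of 0.57. These are descriptions of 6 points that share labelling and scanning. Each member was also compared with 1273 miRNAs detected on all arrays outside the locus, here with the group means left in. Only the 2 highest correlations of each member are named, and such a choice over 6 arrays favours high values. The profiles most like that of miR-424-5p were miR-337-5p (Pearson r = 0.950) and miR-5591-3p (0.948). For miR-503-5p they were miR-574-3p (0.977) and miR-373-5p (0.969), for miR-542-3p miR-3074-3p (0.984) and miR-6826-5p (0.983), and for miR-542-5p miR-1296-5p (0.991) and miR-3687 (0.959). For miR-450a-5p they were miR-1537-3p (0.976) and miR-5196-3p (0.964), and for miR-424-3p miR-4447 (0.966) and miR-513a-5p (0.955). For miR-450b-5p they were miR-493-5p (0.954) and the shared probe of miR-365a-3p and miR-365b-3p (0.943).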

How the data were processed

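Cy5-labelled RNA was hybridised to 3D-Gene arrays, and the authors deposited the median intensity of each of 3200 spots with its local background, per the file headers on a linear scale and without normalization. The authors also deposited processed intensities, whose method is not given in the sources used here. They were rebuilt to within rounding from the mean of the 320 blank spots (5% trimmed at each end) and a scale that set the median detected miRNA to 25.

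The members and lists were chosen with earlier results of these data known, as was the blank-spot background. The blank mean was subtracted, 2565 miRNA probes were quantile normalized on the linear scale, a floor of 1 was set and log2 was taken (3 flagged miRNA spots missing). limma 3.58.1 in R 4.3.3 (lmFit, eBayes with trend) compared 3 arrays with 3, with Benjamini-Hochberg adjustment over 1457 miRNAs, those whose detection held on all 3 arrays of either group. The number of arrays limits the precision. Members were also compared with exact permutation tests. The miRNAs named are the members, the listed miRNAs and the 2 most correlated with each member. The procedure was tested on simulated data. Alternatives were other backgrounds, floors, scalings, detection limits and tests, the replicate block, and each array left out. Plots used matplotlib 3.10.9 (Python 3.11.15).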

Additional observations from a re-analysis of the deposited data

How the results depend on the processing

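Under the 22 alternatives, limma and the methods' t-test called 0 of the 7 members. At an unadjusted p under 0.05 they gave 0 or 1 member (miR-503-5p, but miR-450a-5p without control replicate 1 and miR-424-3p with the local background; 0 without control replicate 3, TGF-β replicate 1 or 2, normalization or trend and with the t-test), except for 3 of 7 without TGF-β replicate 3 (miR-424-5p, miR-503-5p and miR-450b-5p; 11% of all miRNAs). Their lowest adjusted p was 0.155, for miR-424-5p. miR-424-5p and miR-450b-5p were above 0 in every alternative, between 0.037 and 0.31 and between 0.0095 and 0.68. With the local background (normexp), the sign turned for miR-424-3p (-0.035), miR-503-5p (-0.083), miR-542-5p (0.040) and miR-450a-5p (0.19), for miR-15b-5p (0.38), miR-497-5p (0.046) and miR-6838-5p (0.0048), and for miR-19b-3p (-0.33); limma then called 0 miRNAs (34 at an unadjusted p under 0.05), 0 of the relatives and 0 of the TGF-β list, and the cause was not tested. The deposited table turned miR-542-5p (0.0052), miR-450a-1-3p (0.037), miR-15b-5p (0.057), miR-195-5p (0.00060) and miR-497-5p (0.093), which lay below its overall shift of 0.11. With arrays left out, miR-542-3p lay between -0.064 and 0.13, miR-450a-1-3p between -0.25 and 0.073, and miR-503-5p between 0.20 and 0.36. The other members moved by over 1.5 times, miR-424-5p between 0.056 and 0.25, miR-424-3p between 0.060 and 0.29, miR-542-5p between -0.14 and -0.031, miR-450a-5p between -0.27 and -0.093, and miR-450b-5p between 0.27 and 0.68. So did miR-503-3p (0.066 to 0.43), miR-6838-5p (-0.38 to -0.096), miR-497-5p (-0.13 to -0.0087) and miR-143-3p (1.03 to 1.90), the last at 0.026 with the local background and 0.33 with no background correction. The 58 calls over all miRNAs became 35 without normalization, 31 with the deposited table, 31 with detection on at least 1 array, 31 without the trend and 17 with the methods' t-test; leaving out an array gave 26 (TGF-β replicate 2) to 51, with 35 without control replicate 2 and 33 without TGF-β replicate 3. The 1 call among the relatives became 0 with median scaling, 75th percentile scaling, no normalization, the deposited table as given or rescaled (an alternative added after the data were seen), detection on at least 1 array, no trend and the methods' t-test, and was 0 or 1 with an array left out. Detection of all 7 members became 6 at 3 SDs. The replicate number, also the position on the slide, did not pair the arrays (correlations of deviations 0.13, 0.11 and -0.03); the replicate block, which cannot move a difference in this balanced design, gave 61 calls over all miRNAs, an adjusted p of 0.340 for miR-503-5p and a call of miR-143-3p (adjusted p = 0.0371), the third of the TGF-β list. Signal over background limits miR-424-3p, miR-450b-5p and the other arms most.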
